A study of Mus musculus with 4 samples.

Results

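Large peritoneal macrophages (LPMs) are the main resident macrophages of the mouse peritoneal cavity, and the chromatin regions described here are those found open in LPMs of control mice and not called in LPMs whose retinoid X receptors had been deleted. ATAC-seq, which reads out where a transposase can reach the DNA, located the open chromatin, and peaks of the 4 libraries that shared 1 bp or more were merged. The members were chosen by which libraries had a peak, so peak calls and their enrichment are descriptions here. Of 70744 merged regions, 1373 (1.94%) held a peak in at least 1 control library and in neither of the others. They fell into 3 call patterns of very unequal size, with 1225 regions (1.73% of all) called in control replicate 1 alone, 116 (0.164%) in control replicate 3 alone and 32 (0.0452%) in both control libraries.

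The 2 control libraries came from Rxrab fl/fl mice, which carry loxP-flanked alleles of both Rxra and Rxrb and no Cre, and are numbered 1 and 3 (control replicates). The other 2 libraries came from LysMCre+ Rxrab fl/fl mice, numbered 1 and 2 (LysMCre+ replicates), in which Cre expressed from the Lyz2 (LysM) locus deletes both genes in cells of the myeloid lineage. All 4 were made from 40000 sorted LPMs of C57BL/6 mice aged 9 weeks and carried the label of library batch 1, and the labels do not say whether libraries came from separate animals or pools. Sorted cells of a Cre line can include cells that escaped deletion, and loss of the floxed exons cannot be read from peak positions. In bulk samples, fewer cells of a type and less accessible chromatin per cell cannot be told apart.

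RXRα and RXRβ are nuclear receptors that bind DNA with a partner such as a retinoic acid receptor, a PPAR or an LXR, often at 2 half-sites in direct repeat. In LPMs, retinoic acid also sustains Gata6, the transcription factor that marks this macrophage subset. Enhancers are mostly found in introns and between genes, whereas promoters lie at transcription start sites (TSSs). Both targeted genes were outside the set, since none of the 26 regions nearest to Rxra (chr2:27677201-27763319) and none of the 2 nearest to Rxrb (chr17:34031812-34038403) was control-only.

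The libraries differed in peak number. They held 38048 and 16097 peaks in control replicates 1 and 3, and 65421 and 55581 in LysMCre+ replicates 1 and 2. Control replicate 3 had the fewest, and 18064 regions were called in every library but that one. Promoter-TSS regions (from 1000 bp upstream to 200 bp downstream of a TSS) were called for 6 of 8 macrophage marker genes in each control library and for 14 and 8 of 19 annotated LPM marker genes in control replicates 1 and 3. In LysMCre+ replicates 1 and 2 they were called for 7 and 7 of the macrophage genes and for 14 and 13 of the LPM genes. No promoter of the T and NK cell, mast cell, eosinophil or mesothelial marker lists was called in a control library, and 1 of 7 B-cell and 2 of 7 neutrophil markers had one in control replicate 1. Small peritoneal macrophages (SPMs) are the other resident subset. Of 17 SPM genes, promoters were called for 7 and 2 in control replicates 1 and 3. In LysMCre+ replicates 1 and 2 they were called for 16 and 14. The share of all promoters called in each library was not computed, and the LysMCre+ libraries held more peaks. The part of these differences in the results was not tested. The rule itself used the contrast between the genotypes, and 2 libraries against 2 cannot go below p = 0.333 in a two-sided exact permutation test, so calls and strength are described without a test.

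The bases under the strongest region of the set, under a region near Suco and upstream of the Cxcl13 TSS are shown first, from the RefSeq GRCm38.p6 assembly (mm10 coordinates). The Mir691 and Suco regions were called in both control libraries and are given as 201 bases centred on the summit, the position of highest signal. The Cxcl13 sequence stops before the first transcribed base of Cxcl13, which encodes a chemokine that attracts B cells, and belongs to a region called in control replicate 1 alone.
Mir691, chr16:73796655-73796855, plus strand: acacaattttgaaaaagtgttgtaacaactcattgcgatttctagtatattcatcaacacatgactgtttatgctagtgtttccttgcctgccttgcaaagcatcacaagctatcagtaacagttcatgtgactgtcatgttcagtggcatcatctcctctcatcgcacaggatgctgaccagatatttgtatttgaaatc
Suco, chr1:161885799-161885999, plus strand: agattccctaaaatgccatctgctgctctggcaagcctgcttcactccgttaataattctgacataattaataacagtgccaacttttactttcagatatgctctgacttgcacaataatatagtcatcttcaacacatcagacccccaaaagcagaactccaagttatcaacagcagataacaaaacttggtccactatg
Cxcl13, chr5:95956859-95956938, plus strand: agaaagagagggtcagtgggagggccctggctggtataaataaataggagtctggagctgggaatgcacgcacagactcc

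Members with a GATA match (GATAAG on either strand) are shown because the share of such matches in the regions of replicate 1 alone stood above that of all regions, as described after the values. Each line gives 61 bases around the match nearest to the summit, read on the strand of that match, with matches in capitals. The first 2 belong to regions called in both control libraries and the rest to control replicate 1 alone. At the Cxcl13 region, at -32.3 kb from the TSS, 2 matches lay side by side. The Cebpd region lay 97.8 kb from the Cebpd TSS, in an intron of Spidr.
Fam133b, chr5:3514902-3514962, plus strand: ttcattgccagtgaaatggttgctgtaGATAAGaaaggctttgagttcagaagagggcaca
Il1rl2, chr1:40355613-40355673, plus strand: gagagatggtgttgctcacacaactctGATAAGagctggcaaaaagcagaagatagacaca
4930430F21Rik, chr15:30696084-30696144, minus strand: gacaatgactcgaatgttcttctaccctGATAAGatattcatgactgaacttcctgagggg
Olfml2b, chr1:170623102-170623162, minus strand: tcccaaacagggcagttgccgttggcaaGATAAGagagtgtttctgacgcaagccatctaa
Areg, chr5:91200606-91200666, minus strand: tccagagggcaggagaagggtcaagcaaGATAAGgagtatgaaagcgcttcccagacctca
1700084F23Rik, chr13:70103547-70103607, minus strand: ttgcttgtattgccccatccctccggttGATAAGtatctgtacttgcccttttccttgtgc
Cxcl13, chr5:95924541-95924601, plus strand: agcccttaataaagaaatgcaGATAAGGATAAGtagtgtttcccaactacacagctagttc
Cebpd, chr16:15984994-15985054, plus strand: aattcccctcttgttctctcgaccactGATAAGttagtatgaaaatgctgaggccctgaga

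Matches to DR1 and DR5, direct repeats of the nuclear receptor half-site with 1 and 5 bases between them, were few and are shown because RXR heterodimers are known to bind such repeats. Capitals mark the repeat, with 10 bases on either side, on the strand of the match. The regions near Ackr3 and 4933411E08Rik were called in both control libraries, and all others in control replicate 1 alone.
Ackr3, DR5, chr1:90236795-90236831, plus strand: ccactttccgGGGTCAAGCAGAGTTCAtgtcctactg
4933411E08Rik, DR5, chr10:117987635-117987671, minus strand: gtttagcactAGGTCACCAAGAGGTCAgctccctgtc
Arg1, DR5, chr10:25061788-25061824, minus strand: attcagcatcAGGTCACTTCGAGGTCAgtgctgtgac
Sik2, DR5, chr9:51015850-51015886, plus strand: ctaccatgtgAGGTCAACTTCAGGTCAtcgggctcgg
Tcf23, DR1, chr5:30969585-30969617, plus strand: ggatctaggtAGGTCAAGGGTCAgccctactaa
Tspan13, DR1, chr12:36057917-36057949, minus strand: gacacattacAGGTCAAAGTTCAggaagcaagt
Rap1gap2, DR1, chr11:74457365-74457397, minus strand: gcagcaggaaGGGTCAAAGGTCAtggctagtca
Klf7, DR1, chr1:64324214-64324246, plus strand: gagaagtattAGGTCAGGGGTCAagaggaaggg
Rhbdd2, DR5, chr5:135614726-135614762, minus strand: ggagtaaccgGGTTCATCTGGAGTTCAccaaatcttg
4933433H22Rik, DR5, chr17:84099829-84099865, minus strand: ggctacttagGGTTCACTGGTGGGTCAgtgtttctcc
Ksr1, DR1, chr11:79120348-79120380, minus strand: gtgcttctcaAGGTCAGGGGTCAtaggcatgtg

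Of the 32 regions called in both control libraries, 26 (81.2%) were nearest to a gene that also held a region called in all 4 libraries. That share was 70.9% for replicate 1 alone and 42.2% for replicate 3 alone, and was not computed for all regions. Regions were named by the gene with the nearest TSS. The 32 comprised 17 introns, 13 intergenic regions and 2 promoters, and their median width was 310 bp. Fold enrichment, the summit pileup of fragments over the local background with a pseudocount of 1 added to both, had a median of 5.41 in control replicate 1 (range, 2.34–13.1) and 4.85 in control replicate 3 (range, 2.11–6.77). Enrichment was higher in replicate 1 at 23 of the 32 and higher in replicate 3 at 9.

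The strongest of them lay between genes on chromosome 16, at chr16:73796596-73796924, with the microRNA gene Mir691 as nearest TSS 545 kb away. Its fold enrichment was 13.1 in control replicate 1 and 4.85 in control replicate 3, from summit pileups of 38 and 9 fragments over backgrounds of 1.97 and 1.06. These are the lowest backgrounds of the 2 libraries, and the nearest LysMCre+ peak was 25.7 kb away. Scaled by the ratio of lowest backgrounds, 38 fragments in control replicate 1 correspond to 25.6 in LysMCre+ replicate 1 and 20.8 in LysMCre+ replicate 2, whereas both of those libraries had peaks called from 6 fragments at their lowest background. Scaled in this way, its pileup was above the lowest call of both LysMCre+ libraries.

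Suco, which encodes a SUN-domain protein needed for bone formation, had a region at -9.27 kb from its TSS (chr1:161885723-161886171; negative distances are upstream). Enrichment there was 8.76 in replicate 1 and 4.85 in replicate 3, and the nearest LysMCre+ peak was 8.34 kb away. The intronic region of Col6a6, a collagen VI chain gene (chr9:105764597-105765008), had 7.19 and 5.82. It was 92.8 kb from the nearest LysMCre+ peak, and the gene held no region called in all 4 libraries. Eef2k, whose kinase slows translational elongation, had a region at -7.24 kb (chr7:120835432-120835741) with 6.08 in replicate 1 and 6.77 in replicate 3. This one stood only 61 bp from a LysMCre+ peak and 0.164 kb from a region called in all 4 libraries.

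Mpeg1 encodes perforin-2, a pore-forming protein of macrophages, and its member at chr19:12473321-12473690 lay 12.7 kb downstream of its TSS, in an intron of Dtx4. Enrichment was 8.55 in replicate 1 and 4.17 in replicate 3, from pileups of 51 and 11. A LysMCre+ peak was 1.08 kb away. Cyp4f18, a cytochrome P450 that inactivates leukotriene B4, had an intronic region (chr8:72005970-72006278) with 7.93 and 4.55. Cyp4f16, a related P450 gene on another chromosome, had one 38.5 kb downstream of its TSS at 5.62 and 5.82. The region nearest to Mir582, in an intron of Pde4d (chr13:109342480-109342854), had 7.43 and 5.41. The region nearest to Fam133b, in an intron of the cell cycle kinase gene Cdk6 (chr5:3514766-3515194), had 7.45 and 5.34, and its GATA match lay 5.50 bases from the summit. Bach1, a haem-sensitive transcriptional repressor, had a region at -63.4 kb (chr16:87635379-87635726) with 6.70 and 5.34, which ended 96 bp from a LysMCre+ peak. At Gm2237 (chr14:19417737-19417937) enrichment was 6.33 and 6.03, and 92.0% of the 201-base window was repeat sequence, as soft-masked in the assembly. Distances of these 10 to a LysMCre+ peak ran from 61 bp to 92.8 kb.

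The other 22 regions had fold enrichments of 2.34–7.26 in replicate 1 and 2.11–6.36 in replicate 3. Among them were genes of haem handling (Slc48a1, a haem transporter), lipid storage (Hilpda, a lipid droplet protein that inhibits lipolysis), glycogen synthesis (Gyg, the glycogenin primer), Fc receptor signalling (Fcer1g, the common γ chain), purine sensing (P2ry13, an ADP receptor), chemokine scavenging (Ackr3, which binds CXCL12), IL-36 signalling (Il1rl2) and small GTPases (Rhog and Rnd2). The remaining ones were nearest to Cyp4f16, Elk3, Cmip, Zfat, Gm51573, Pim3, E030030I06Rik, Mir335, 2700054A10Rik, Gnat2, Hivep2, 4933411E08Rik and Sfi1. Both promoters were among the 9 with higher enrichment in replicate 3. Gyg had 4.00 in replicate 1 and 6.36 in replicate 3, at -0.548 kb from its TSS. Rnd2 had 3.88 and 5.52 at -0.0680 kb, in a window of 80.1% GC. Both ended close to a LysMCre+ peak, 199 and 113 bp away.

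**Figure D1:**
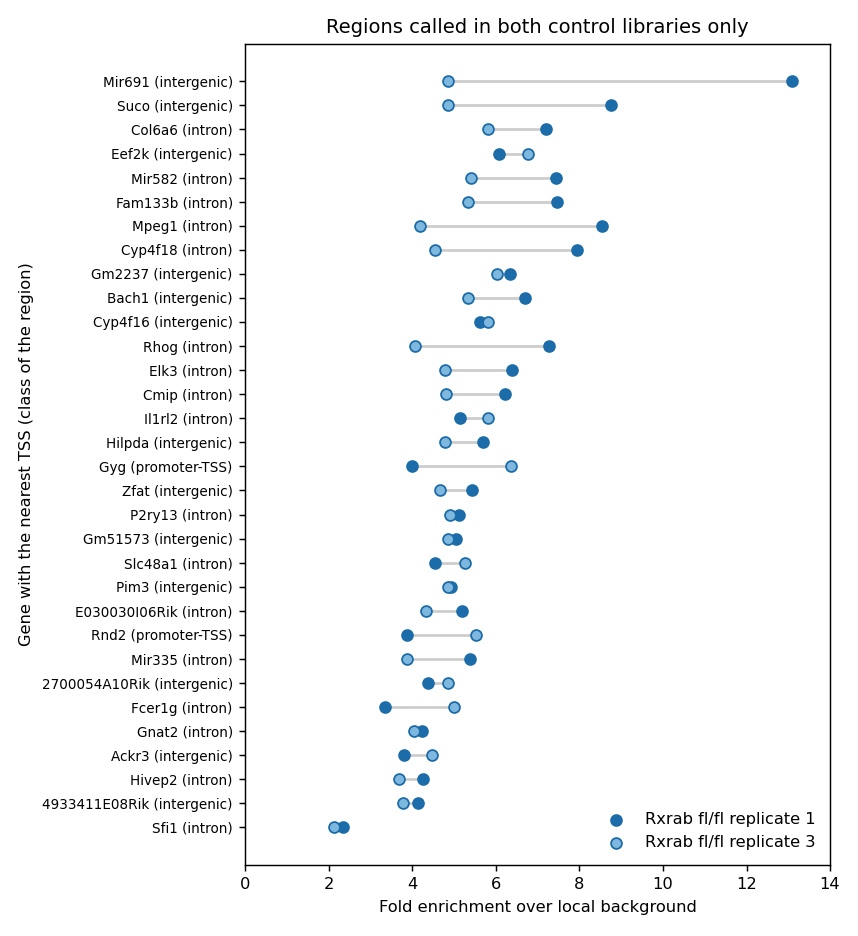
Fold enrichment (horizontal axis) of the 32 control-only regions with a peak in replicates 1 and 3 of Rxrab fl/fl LPMs, 1 row per region named by its nearest gene and class. Dark points are replicate 1 and light points replicate 3; the region near Mir691 is the highest in replicate 1 at 13.1, while replicate 3 stayed between 2.11 and 6.77.

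The largest pattern, 1225 regions of control replicate 1 alone, was led by a region in an intron of Ctnnd2, which encodes δ-catenin. It lay at chr15:30695882-30696211, -343 kb from the nearest TSS, that of 4930430F21Rik, with a fold enrichment of 12.5 from a pileup of 36. Its nearest LysMCre+ peak was 40.7 kb away. The next were nearest to Gm18905 (11.6), Gm29012 (10.4) and Poc1a, a centriole component (9.53). Those near Cops8, a subunit of the COP9 signalosome, Gm30726 and 1700025K24Rik each reached 9.09. Olfml2b, an extracellular matrix protein gene, had a region at -21.4 kb with 9.06. Lyzl1, a lysozyme-like gene, had one at 8.90. Areg encodes amphiregulin, a ligand of the EGF receptor, and its region 61.1 kb from the TSS reached 8.76. Usp12 (8.72), Mrln (8.71), 1700084F23Rik (8.66), Gm15501 (8.58) and Plcb1 (8.42) completed the 15 strongest, and the other 1210 ran from 1.57 to 8.42. None of these 15 was a promoter.

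Regions called in control replicate 3 alone were weaker and narrower. Of the 116, 75 (64.7%) were exactly 200 bp wide, the fragment extension used in peak calling, against 305 of 1225 (24.9%) for replicate 1 alone and 0 of 32 for both. Their median pileup was 9 fragments, and 80 of 116 stood on the lowest background of the library. The strongest, at chr9:3025413-3025646 and nearest to Mir101c, had an enrichment of 11.6 and a pileup of 23, in a window that was 92.5% repeat sequence. It was the only one above 5.88. Ccl28, a mucosal chemokine, had one at 5.88, in an intron of Tmem267. D3Ertd751e, Vav3 (a guanine nucleotide exchange factor), 1700081H04Rik, Rny3, Mctp1, Khdrbs3 and Gxylt1 each had 5.82, which at this background is a pileup of 11. Lin7c had 5.77, and the other 106 ran from 2.37 to 5.34. Repeats made up at least 50% of the window in 27 of the 116 (23.3%), in 90 of the 1225 (7.35%) and in 3 of the 32 (9.38%), beside 3.81% of all merged regions. Promoters made up 4 of the 116, at 4930527A07Rik, Erfl, Tgif1 and Sv2a.

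By nearest TSS, the weaker intronic regions of replicate 3 alone belonged to Cyp24a1, Mir218-2, Epb41l3, Mir5623, Pml, Adcyap1r1, BC048403, Flrt3, Cc2d1b, Oca2, Abce1, Ap3b1, 4930430F21Rik, Chsy3, Cel, Krt77, Cyb5r4, Mir669n, Clip4, Mir100hg, Mef2d, Eqtn, Tmtc2, Gm5136, 4921513I03Rik, Gm10421, Chrm3, Kat6b, A230028O05Rik, Cyp4f15, Diras2, Ptprg, D830035M03Rik, D430042O09Rik, Fam178b, Bend7, Pcsk2os1, Egfem1, Gm32693, Pgm5, D16Ertd519e, Htr3b and Sfi1. The weaker intergenic ones were nearest to Cdc42bpa, Mindy3, Lrif1, Gm36109, 2700054A10Rik, Mir8099-2, Htra1, Elobl, Fhl2, Trp53i11, Slc23a2, 8430436N08Rik, Caap1, Gm15627, Pdk4, Oat, Megf11, Slc17a8, Gm38509, Sla2, Vegfa, Gm35888, Gm13363, Hemgn, Gm12633, 4930511E03Rik, Sspn, Zfp709, Aplp2, 4921511I17Rik, Actbl2, Stmn4, Mzt1, Gm31369, Nox3, Vmn2r129, Gm13498, Gm28453, Creb1, Gatb, Ttll7, Slc24a2, Zfp985, Tex36, Nat3, Ilvbl, 4930553C11Rik, Egflam, Ank, H2-M11 and Slc16a12. Regions in coding exons or at transcript ends were nearest to Gm15133, Foxc1, Vwde, Shisa7, 1700012B07Rik and Castor1.

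Members were weak relative to the other regions of their library. The median member of replicate 1 alone stood at percentile 12.1 of that library's 36800 regions by fold enrichment, and the median of replicate 3 alone at percentile 3.70 of 15478. Regions called in both control libraries held percentile 22.7 in replicate 1 and 9.64 in replicate 3. Median enrichment was 4.70 for replicate 1 alone, against 6.40 for regions missing only from replicate 3 and 14.5 for regions called in all 4 libraries. In replicate 1, the control-only share fell from 17.8% (290 of 1627; 95% Wilson interval, 16.0–19.8) of regions under a fold enrichment of 4 to 6.47% (308 of 4757) between 5 and 6 and 0.0174% (2 of 11501) at 12 or over. With equal numbers of peaks per library, 3763 regions were control-only, which included 5 of the 1225 of replicate 1 alone and all 116 and 32 of the other patterns. Those 116 and 32 stayed by construction, since the number used was that of control replicate 3. No peak of replicate 3 was dropped, whereas the LysMCre+ lists only became shorter. Over all strengths the share of the replicate 1 regions as called was 3.42%, and 0.956% for the regions of replicate 3. Such intervals cover counting error only. The number of reads is unknown since the peak lists hold no totals. The lowest background, used below to scale pileups, was 1.97 and 1.06 in control replicates 1 and 3. It was 1.33 and 1.08 in LysMCre+ replicates 1 and 2. Control replicate 3 and LysMCre+ replicate 2 were thus close by this measure, with 16097 and 55581 peaks. The cause of the difference in peak number was not tested.

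**Figure D2:**
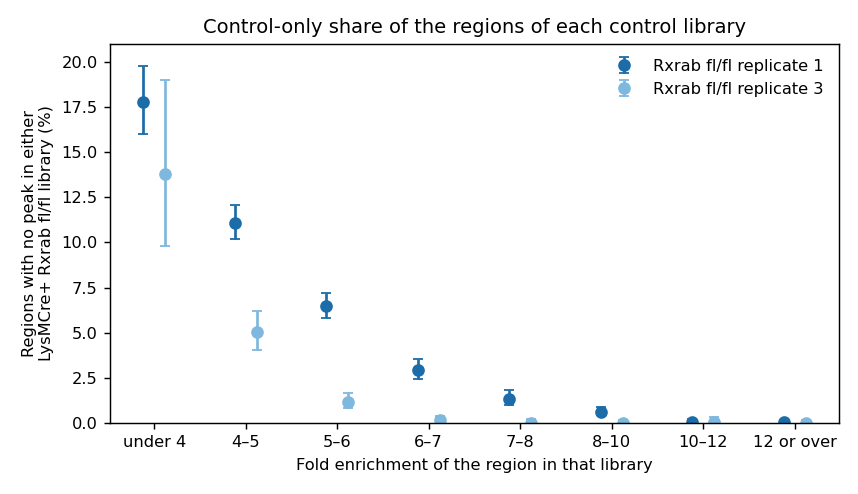
Percentage of the regions of each control library (vertical axis) with no peak in either LysMCre+ Rxrab fl/fl library, by fold enrichment in that control library (horizontal axis); points are shares and bars 95% Wilson intervals. The share in replicate 1 fell from 17.8% under 4 to 0.0174% at 12 or over.

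The weakest members sat at the edge of detection. The lowest-scoring region of replicate 1 alone, nearest to Wnt16, had a pileup of 8 and a −log10 q value of 1.5. That of replicate 3 alone, nearest to Htr3b, had a pileup of 6 and 1.36. Just outside the set, a region near Dpp6 was called in control replicate 1 at 3.95-fold and in LysMCre+ replicate 1 on 7 fragments, and one near Gm8630 was called in control replicate 1 at 4.04-fold and in LysMCre+ replicate 2 on 7 fragments. By position, members near Mir7675 and Tbcb lay 4 bp from a LysMCre+ peak and one near Fgd4 directly adjoined one, whereas shared regions near Cox4i1 and Apbb1ip were joined by overlaps of 2 and 4 bp. Scaled by lowest backgrounds, 1177 of the 1225 pileups of replicate 1 alone (96.1%) would have reached the lowest pileup called in both LysMCre+ libraries, where the local background was at its lowest there. The local background of the LysMCre+ libraries at members is not in the lists, and only 467 of the 1225 (38.1%) stood on the lowest background of replicate 1. The bar is also a low one. Median pileup was 16 for these members and 38 for all peaks of replicate 1, so passing it is not particular to members. The share of all replicate 1 regions that pass was not computed.

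Distances to the nearest LysMCre+ peak differed between the patterns. The nearest LysMCre+ peak was within 1 kb for 348 of the 1225 regions of replicate 1 alone (28.4%), 13 of the 32 of both (40.6%) and 5 of the 116 of replicate 3 alone (4.31%). Median distances were 2.75, 1.27 and 20.2 kb. No such share was computed for other regions or positions, so closeness is not shown to be a trait of members. Median distances to a region called in all 4 libraries were 17.3, 5.36 and 95.2 kb in the same order. For regions called in replicate 1 and 1 LysMCre+ library that median was 17.7 kb. At the far end, 48 of the 116 regions of replicate 3 alone (41.4%) and 324 of the 1225 of replicate 1 alone (26.4%) lay over 50 kb from a TSS, beside 17.6% of all merged regions. For both, 6 of 32 (18.8%) lay that far from a TSS.

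Control-only regions as called were mainly intronic or intergenic. Introns held 626 (45.6%) and intergenic sequence 634 (46.2%) of the 1373, whereas promoters held 59 (4.30%; interval, 3.35–5.50). Promoters made up 18.1% of all merged regions and 47.0% of regions called in all 4 libraries. This share depended on how peaks were compared, being 30.1% of 3763 control-only regions with equal numbers of peaks per library and 25.0% of 2923 when each peak was cut to its summit and the 100 bp flanking it. By pattern, promoters were 53 of 1225 (4.33%; interval, 3.32–5.62) for replicate 1 alone, 4 of 116 (3.45%; interval, 1.35–8.53) for replicate 3 alone and 2 of 32 (6.25%) for both, where the interval of 1.73–20.1 holds the share of all regions. Regions called in a single LysMCre+ library had 7.03% and those called in both LysMCre+ libraries only had 7.06%. Among the 59 promoter members, 38 (64.4%) lay within 1 kb of a LysMCre+ peak and 23 covered the TSS. The share of other promoters that close to a LysMCre+ peak was not computed.

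**Figure D3:**
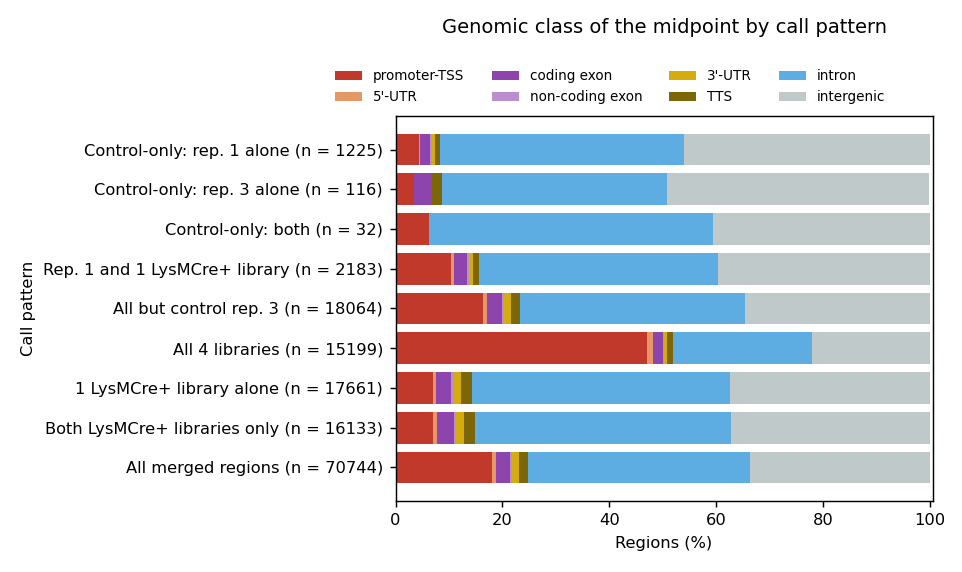
Stacked bars give the percentage of regions (horizontal axis) in each genomic class by call pattern; n is the number of regions and TTS the end of a transcript. Promoter-TSS made up 4.33, 3.45 and 6.25% of the 3 control-only patterns and 47.0% of regions called in all 4 libraries.

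Members were lower in GC than all regions. Median GC content of the 201-base windows was 48.3% for replicate 1 alone, 46.8% for replicate 3 alone and 44.8% for both, beside 51.7% for all merged regions and 58.2% for regions called in all 4 libraries. Windows with no CpG made up 13.9% of members and 7.53% of all regions. Other weakly shared patterns lay nearer to the members. Regions called in replicate 1 and 1 LysMCre+ library had 49.3% GC and 10.3% with no CpG. Those called in 1 LysMCre+ library alone had 50.2 and 10.6%.

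GATA matches were frequent in regions of control replicate 1 alone. GATAAG occurred within 100 bp of the summit in 187 of 1225 (15.3%; interval, 13.4–17.4), beside 3323 of 70744 merged regions (4.70%), 4.84% of regions missing only from replicate 3 and 4.4% of regions called in all 4 libraries. Regions called in replicate 1 and 1 LysMCre+ library stood between, at 8.02% (interval, 6.95–9.23). Replicate 3 alone had 3 of 116 (2.59%; interval, 0.883–7.33). Both had 2 of 32 (6.25%), with an interval of 1.73–20.1 that holds the shares of replicate 1 alone and of all regions. Single LysMCre+ libraries had 4.24% and both LysMCre+ libraries only had 4.02%. Among members outside promoters the share was 12.9% (35 of 271) under 4-fold, 24.8% (35 of 141) between 6-fold and 8-fold and 28.1% (9 of 32; interval, 15.6–45.4) at 8 or over. Replicate 1 regions outside promoters that were also called in a LysMCre+ library had 3.93, 5.77 and 6.55% in those ranges. The last range is not matched in strength, since 28 of the 32 members in it were under 10-fold. Of all replicate 1 regions, promoters included, 4502 lay between 8-fold and 10-fold and 11501 at 12-fold or over. Without control replicate 1, 151 regions were control-only and 3.97% of them had a match. With the 16097 best peaks of each library the share was 8.0%, beside 4.24% of all regions.

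**Figure D4:**
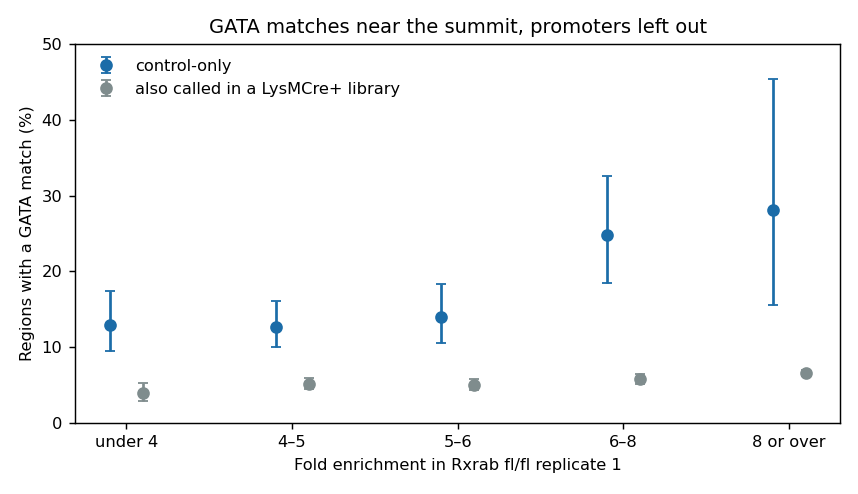
Percentage of replicate 1 regions outside promoters with GATAAG within 100 bp of the summit (vertical axis), by fold enrichment in replicate 1 (horizontal axis), for control-only regions and for regions also called in a LysMCre+ library; bars are 95% Wilson intervals. Control-only regions ran from 12.7 to 28.1% and the others from 3.93 to 6.55%; the range at 8 or over is not matched in strength.

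Motifs of other macrophage factors moved less or the other way. The C/EBP pattern TTGCNNAA occurred in 249 of 1225 regions of replicate 1 alone (20.3%; interval, 18.2–22.7) and 11.1% of all regions. Regions called in replicate 1 and 1 LysMCre+ library were close to the former, at 17.9% (interval, 16.4–19.6). C/EBP factors act widely in myeloid cells. The C/EBP match share was 18.8% for both and 4.31% for replicate 3 alone. GAGGAAGT, for the macrophage factor PU.1, was found in 75 of 1373 members (5.46%) and 9.30% of all regions. CTCF, which anchors chromatin loops, matched 25 members (1.82%) and 5.52% of all regions. A low CTCF share was not particular to members, since regions called in all 4 libraries had 1.26%. Regions called in replicate 1 and 1 LysMCre+ library had 3.07%, and those called in both LysMCre+ libraries only had 8.71%. KLF matches (CCNCNCCC) were in 23.1% of members and 31.0% of all regions. Regions called in replicate 1 and 1 LysMCre+ library had 25.7%, and regions called in all 4 libraries had 47.1%. AP-1 (TGANTCA, 14.5 and 12.7%), MEIS (TGACAG, 17.7 and 16.6%) and the interferon element ISRE (1.89 and 2.03%) were close to the share of all regions. Both strands were searched and motifs could overlap.

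Direct repeats were rare. DR5 occurred in 12 of 1373 members (0.874%; interval, 0.501–1.52) and 0.151% of all regions, and DR1 in 8 (0.583%; interval, 0.296–1.15) and 0.164%. Regions called in replicate 1 and 1 LysMCre+ library had the same DR5 share, 0.870%, and 0.183% for DR1. Most matches lay away from the summit. Within 50 bp, DR5 was in 3 members (0.218%) and 0.0664% of all regions, and DR1 in 1 member (0.0728%) and 0.0721% of all regions, so the higher DR1 share of members was not seen in that window. The closest in the sequences printed was at Ackr3, 5 bp from the summit, in a region with fold enrichments of 3.79 in replicate 1 and 4.46 in replicate 3. Sik2, a salt-inducible kinase gene, had the strongest region with a direct repeat, at 8.06-fold and -6.88 kb from its TSS. Tcf23 followed at 7.78-fold, then Tspan13 (6.40), Rap1gap2 (6.19), Klf7 (6.06), Rhbdd2 (5.98), 4933433H22Rik (5.91) and Ksr1 (5.30). All 8 were called in replicate 1 alone.

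LPM marker genes held control-only regions above the overall share, and all of them came from control replicate 1. Of 132 regions nearest to 19 LPM genes, 14 were control-only (10.6%; interval, 6.42–17.0), beside 1.94% of all merged regions. SPM genes held 3 of 104 (2.88%), and general macrophage markers held 0 of 59, which allows a share of up to 5.08%. Among regions called in a control library, the LPM share was 14.1% and the overall share 3.72%. The 14 lay at only 6 of the 19 genes, and the interval treats regions of a gene as independent, so it is too narrow for a statement about genes. Of the 14, 5 were at Thbs1, and without that gene the share was 9 of 119 (7.56%). Without control replicate 1 it was 0 of 118, when 0.217% of all regions were control-only. The list was drawn up with earlier results of these libraries known and is not independent evidence of a direction.

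Cxcl13 (chr5:95956939-95961068) had 3 members among 13 regions. The strongest covered the TSS, with its midpoint 0.023 kb downstream, and had 6.40-fold enrichment from 18 fragments on the lowest background of replicate 1. No other library had a peak at this promoter, and the nearest LysMCre+ peak was 7.93 kb away. The others lay at -32.3 and -31.4 kb with 5.35-fold and 4.04-fold. Of the 13 regions, 3 were called in all 4 libraries, at -58.8, -42.7 and 8.2 kb from the TSS, and 3 were called in 1 LysMCre+ library alone, at -58.4 kb (3.98-fold), -11.6 kb (4.30-fold) and 80.8 kb (4.73-fold).

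Arg1, which encodes arginase 1, had 2 members among 8 regions. One was at -134 kb with 5.05-fold and a DR5 match, and the other at -4.21 kb with 4.56-fold, 921 bp from a LysMCre+ peak. A shared region at -2.92 kb had fold enrichments of 18, 9.12, 20.7 and 16.5 in control replicates 1 and 3 and LysMCre+ replicates 1 and 2. Itga6, the integrin α6 gene, had 1 intronic member 14.9 kb from its TSS at 5.25-fold among 12 regions. Gata6 itself had 1 of 4, at -36.2 kb from its TSS with 4.71-fold, and its nearest LysMCre+ peak was 513 bp away, called in LysMCre+ replicate 2 at 4.33-fold. The Gata6 promoter was open in every library, with 11.3 and 7.61 in the control libraries and 5.80 and 8.61 in the LysMCre+ libraries.

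The genes with most members were led by 2 genes of TGF-β and matrix biology and by Sfi1, each with 5. Ltbp1 (chr17:75005529-75392512), which encodes a latent TGF-β-binding protein, had 5 of 25 regions, all from replicate 1 alone. They had fold enrichments of 5.05, 4.71, 4.39, 3.97 and 3.87, and the last was a promoter-TSS region of an internal TSS, 173 kb into the gene. The main promoter was called in all 4 libraries at 9.13, 4.74, 9.79 and 10.6, and 6 regions in all were shared by the 4 libraries. The 2 members at 4.39 and 3.97 flanked the region 108 kb into the gene, which had 19.7 in control replicate 1, 12.6 in control replicate 3 and 15.3 in both LysMCre+ libraries.

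Thbs1 (chr2:118111876-118127133), the thrombospondin-1 gene, had 5 of 13 regions, again all from replicate 1 alone. They lay 5.20 to 25.4 kb downstream of the TSS with low fold enrichments of 2.76, 2.26, 1.87, 2.45 and 3.98. Those at 2.45 and 3.98 lay at the transcript end and in an intron of Fsip1, and that at 1.87 at the transcript end of Thbs1. Pileups were 55, 47, 79, 92 and 22 fragments in the same order, on local backgrounds of 19.3, 20.2, 41.9, 36.9 and 4.78. The promoter was called in all 4 libraries at 12.3, 10.4, 12.5 and 12.6. At the region 15.8 kb downstream, which control replicate 1 shared with both LysMCre+ libraries, the background was 42.4 in control replicate 1, 11.6 in LysMCre+ replicate 1 and 22.2 in LysMCre+ replicate 2.

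**Figure D5:**
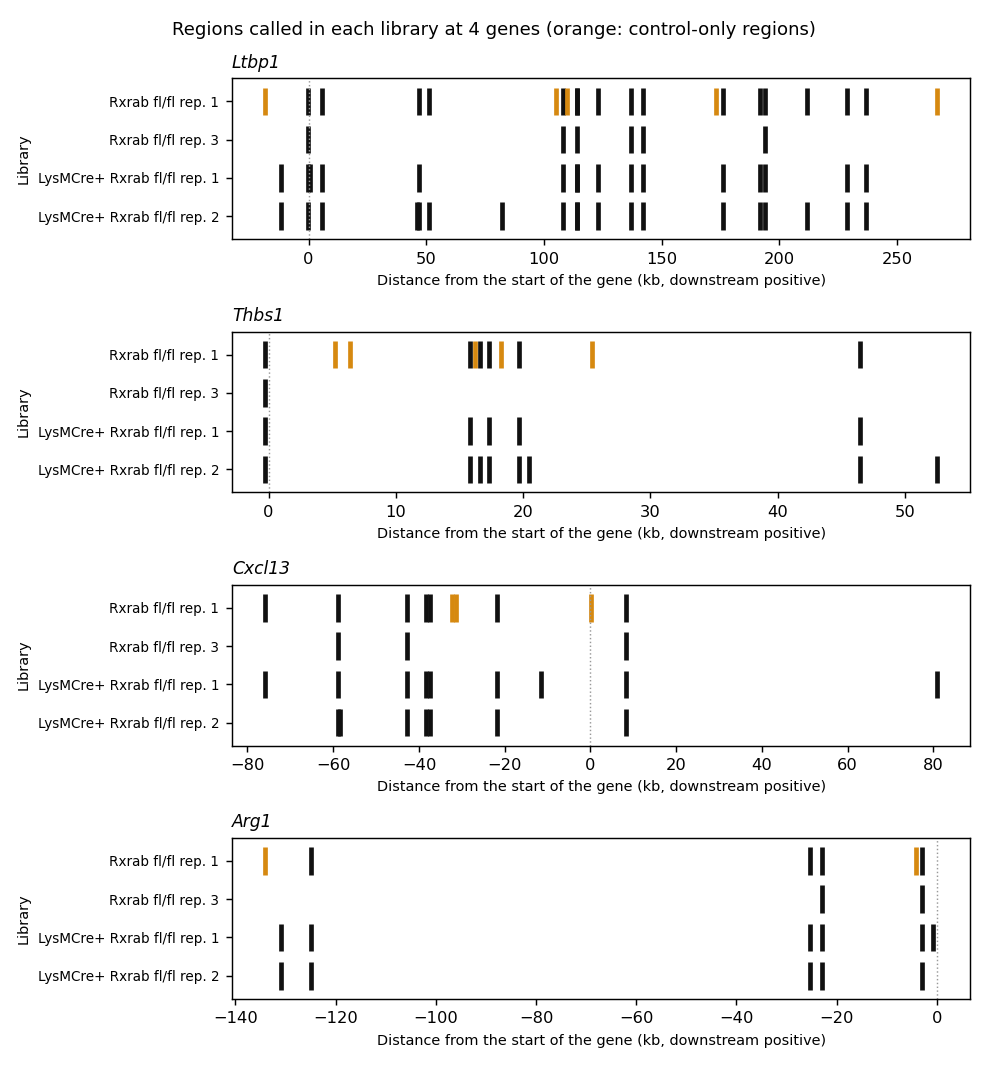
Regions called in each of the 4 libraries (rows) at Ltbp1, Thbs1, Cxcl13 and Arg1, by the distance of the midpoint from the start of the gene in kb (horizontal axis, downstream positive); ticks mark positions, not widths. Control-only regions (orange) appear in the row of control replicate 1 alone, 5 at Ltbp1, 5 at Thbs1, 3 at Cxcl13 and 2 at Arg1.

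Sfi1 (chr11:3131850-3200652), a centrosomal gene, had 5 of 9 regions, and they covered every pattern. The region called in both control libraries had fold enrichments of 2.34 and 2.11, from pileups of 97 and 58 over backgrounds of 40.8 and 26.9. The 2 regions of replicate 3 alone stood on backgrounds of 22.2 and 16.5, whereas the median of that pattern was 1.06. The 2 of replicate 1 alone stood on the lowest background of that library. Rny3, a Y RNA gene, had 4 of 8, which lay side by side within chr6:47760396-47761952, of which the first, second and last were called in replicate 1 (5.52, 4.55 and 5.81) and the other in replicate 3 (5.82).

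Slc7a14, a gene of the amino acid transporter family, had 4 of 5 regions control-only, from -17.7 to -125 kb, at 4.71, 6.06, 5.05 and 6.73. Its other region was called in control replicate 1 and LysMCre+ replicate 1, and none was shared by all 4 libraries. AY512915 had 3 of 4 (5.39, 5.39 and 6.40), and its promoter was called in control replicate 1 and both LysMCre+ libraries. Apbb1ip, which encodes the integrin-activating adaptor RIAM, had 4 of 22 at 3.50 to 5.81. Plcb1, a phospholipase C gene, had 3 of 12, of which that at -61.9 kb was among the 15 strongest. Mir6352 had 3 of 13, and Zfp608 3 of 44, the lowest share of these 10 genes at 6.82%. Over all genes, 1217 of the 18185 with any region had a member and 22 had 3 or more.

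Genes of clotting and matrix had 14 of 157 regions (8.92%; interval, 5.39–14.4), of which the 7 at Thbs1 and Tgfb2 were also counted among the LPM genes. Leaving out Thbs1 and Ltbp1, chosen because they had most members, gave 4 of 119 (3.36%). The others in that list were Plau, the urokinase gene, with 1 region at -2.34 kb with 5.35-fold, Tgfb2 with 2 intronic regions at 3.45-fold and 3.37-fold, and Fn1, the fibronectin gene, with 1 at 2.57-fold. LPM transcription factors had 8 of 284 (2.82%), with members nearest to Cebpd (6.73), Fos (6.48), Klf4 (2 of 52 regions, 4.38 and 3.70) and Bhlhe41 (4.09) beside Gata6. The Cebpd member lay 97.8 kb from the Cebpd TSS, in an intron of Spidr. The Fos member lay 50.7 kb from its TSS, and the Klf4 members at -98.9 and -319 kb. Genes of retinoid receptors and metabolism had 3 of 144 (2.08%). The intervals of these last 2 lists, 1.43–5.46 and 0.711–5.95, hold the 1.94% of all merged regions. The retinoid members were Tgm2 (5.75), a transglutaminase gene induced by retinoic acid, Cyp26b1 (4.85), which degrades retinoic acid, and Rara (3.99), the retinoic acid receptor α.

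RXR partners and their lipid targets had 5 of 174 (2.87%), with an interval of 1.23–6.55 that holds the 1.94% of all merged regions. Plin2 (4.97), a lipid droplet coat protein, Abcg1 (4.70), a cholesterol exporter, and Mylip (4.04), which targets the LDL receptor for degradation, came from replicate 1 alone. Cyp24a1 (5.34), which degrades vitamin D, and Pdk4 (4.85), a brake on pyruvate oxidation, came from replicate 3 alone, and the window near Cyp24a1 was wholly repeat sequence. The SPM members were Ly6c2 (5.45), Ccr2 (4.71) and Ciita (4.04), all in replicate 1 alone. Genes of apoptosis and survival had 2 of 119 (1.68%; interval, 0.462–5.92), also near the share of all regions. They were nearest to Naip2 (7.41), at -11.8 kb in an intron of Naip5, and to Birc2 (5.39). Proliferation genes had 0 of 79, which allows up to 3.8%. Lists for B, T and NK, mast, eosinophil, neutrophil and mesothelial cells had no member among 3 to 14 regions each. That allows shares of up to 21.4% (neutrophil) to 100% (mast cell), so these lists are too small to tell.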

How the data were processed

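ATAC-seq peak lists of 4 libraries of sorted LPMs, 2 per genotype, were used. According to the study's methods, the authors trimmed reads with cutadapt, aligned them to mm10 with Bowtie2 (given as version 4.1.2), discarded duplicates, improper pairs, alignments under the quality limit and everything on X, Y and the mitochondrion, and called peaks in each library separately with MACS2 2.1.1 at q 0.05 (shift stated as 100 bp with no legible sign, extension 200 bp; a wrong sign would move summits and motif windows). Blacklisted regions were removed with bedtools 2.24.0. Samples that did not cluster with their group were left out by the study, which bears on any difference between genotypes.

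Per peak, the deposited columns hold the fold enrichment (a ratio with a pseudocount of 1), the −log10 p-value and −log10 q-value, a score (not used) and the summit offset. The pileup and background that give both the fold and the −log10 p-value deposited were solved to within 0.002, for 98.2 to 100% of peaks by library.

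Peaks sharing 1 bp were merged. Midpoints were classed with 43783 curated RefSeq transcripts of GRCm38.p6 (promoter-TSS first; transcript end from 100 bp before to 1000 bp after). Motifs were searched within 100 bp of the strongest summit. Python 3.11.15 with numpy 2.4.6, scipy 1.17.1 and pysam 0.24.0 was used, and pileup solving, merging and motif search were tested on simulated data. No test between genotypes was made, because the rule used that contrast. Members and gene lists were chosen with earlier results of these data known. Named genes were Rxra and Rxrb, all members of replicate 3 alone and of both, with values for the 10 strongest of each (1 weaker member of replicate 3 alone is not reported here), the 15 strongest of replicate 1 alone, the 10 genes with most members (ties by summed fold enrichment), up to 5 members' genes per list and up to 8 direct-repeat members; regions at the edges of the rule, the closest direct repeat and promoter members were named after their values were seen. Alternatives covered q threshold, equal peak numbers, merging, placement, annotation, motif window, gene assignment, strength measure and leaving out each library.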

Additional observations from a re-analysis of the deposited data

How the results depend on the processing

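Counts and shares were recomputed under 126 alternatives, of which 84 left a count within 1.5 times, or a share or median percentile within the 95% interval, of that reported. A q threshold of 0.01 changed the total to 1372 in all lists. With the 16097 best peaks of each library, 3763 regions were control-only, 780 in replicate 1 alone, 1373 in replicate 3 alone and 1610 in both, with 30.1% promoters and 8.0% with a GATA match, and 19 of 44 LPM-gene regions (43.2%, beside 16.9% of all). Only 153 of the 1373 members were among them (5 of the 1225 of replicate 1 alone). Members with a peak in replicate 3 stayed by construction, since no peak of that library was dropped. Reducing peaks to 100 bp either side of the summit gave 2923 (2075, 599 and 249 by pattern), 25.0% promoters and 8.42% with GATA. Merging peaks up to 200 bp apart gave 3.03% promoters, and requiring LysMCre+ peaks to cover 50% of the control peaks gave 51 regions in both and 5.51%. The promoter share was 7.14% with the window from 2 kb upstream to 500 bp downstream and 7.36% with predicted transcripts. GATA was in 7.14% of members within 50 bp and 17.9% within 150 bp, beside 2.26 and 7.32% of all regions. Ranked by pileup, the median of replicate 3 alone was percentile 3.15.

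Leaving out 1 library at a time gave 151 to 3246 regions. Without control replicate 1 there were 151, 3.97% with GATA and 0 of 118 LPM-gene regions, when 0.217% of all regions were control-only. All 14 LPM members and 187 of the 192 GATA matches were in regions of replicate 1 alone. Without control replicate 3 there were 1257. Without LysMCre+ replicate 1 there were 3246, and without LysMCre+ replicate 2 there were 1915. With either LysMCre+ library left out, replicate 1 alone ran from 1742 to 3014, replicate 3 alone from 118 to 125 and both from 55 to 107. Over all 4 omissions, promoters ran from 4.38 to 9.03% and GATA from 3.97 to 15%, while LPM members ran from 0 to 19. The GATA and LPM recalculations beyond the planned windows were chosen after seeing the data. No paired analysis was possible because the genotypes share only replicate number 1 and no test was made. The cause of these shifts was not tested.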
